A study of Mus musculus with 6 samples.

Results

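The regions described here are 746 distal stretches of open chromatin that stood higher in the peak lists of every high-altitude de-acclimatization (HADA) library than of every control library. They were selected by that difference. Peaks of the 6 libraries on chromosomes 1 to 19 that shared at least 1 bp were merged into 60298 regions. Of these, 23013 held a peak in all 6 libraries, and 8312 of the shared regions were distal, with every summit more than 3000 bp from any annotated transcript start. Each region was placed by the −log10 p-value of its highest peak, as the authors' peak caller gave it, on a percentile scale within its own library, where 100 is the strongest peak of that list. A region was kept where its lowest HADA percentile exceeded its highest control percentile by at least 10 points. The 746 regions are 8.97% of the shared distal regions, and the mirrored rule found 841 regions weaker in HADA, or 10.1%. Because the HADA and control heights made the selection, they are given as a description and carry no test.

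Chromatin accessibility was profiled by ATAC-seq, which uses the Tn5 transposase to cut and tag open DNA, in white blood cells from mouse peripheral blood after lysis of red cells. There were 3 HADA and 3 control libraries. As the study describes them, HADA mice had lived in a hypobaric hypoxic chamber and were then moved back to normoxia, while control mice stayed in normoxia throughout, and all were male C57BL/6j mice. The labels give neither the day of blood sampling nor whether a library came from 1 animal, so the spread between libraries may be partly technical. The study's methods describe leukocytes after red cell lysis, while its results call the cells mononuclear, a fraction that would lack most granulocytes. The cells were not sorted by type. In such a mixture, fewer cells of a type and less accessibility per cell cannot be told apart.

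Many distal open regions of blood cells are enhancers or other regulatory elements, which bind lineage transcription factors and act on promoters that can lie far away. Lymphocytes and myeloid cells open largely different sets of them. EBF, PAX5, E2A and OCT factors act in B cells, TCF7, LEF1, RUNX and ETS factors in T cells, PU.1 in B and myeloid cells, and C/EBP factors in neutrophils and monocytes. The nearest protein-coding gene is used below as the name of a region, although an enhancer need not act on its nearest gene.

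The bases at the summits of 8 regions are printed so that the motif letters counted below can be seen in place. All hold at least 1 of the motifs searched, lie outside exons and have 50 bases at the summit that occur once in the genome. Among such regions the first 4 have the widest separation between groups, and the other 4 the widest near genes of fixed lymphocyte lists, so wider regions without motif letters, such as that of Grap2, are not printed. All are 201 bases of the plus strand of GRCm39, read 5′ to 3′, with the summit at the central base. Capitals mark the motif letters found.
Dynlrb2, chr8:117314330-117314530: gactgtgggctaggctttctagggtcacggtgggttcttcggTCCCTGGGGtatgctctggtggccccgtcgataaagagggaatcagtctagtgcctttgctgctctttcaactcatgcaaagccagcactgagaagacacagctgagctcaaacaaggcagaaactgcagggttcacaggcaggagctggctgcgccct
Mapk6, chr9:75309445-75309645: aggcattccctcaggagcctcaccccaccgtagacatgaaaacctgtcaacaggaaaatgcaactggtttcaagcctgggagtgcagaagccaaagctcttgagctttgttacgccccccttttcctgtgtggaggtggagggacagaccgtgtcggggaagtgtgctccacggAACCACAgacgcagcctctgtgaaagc
Abl2, chr1:156424832-156425032: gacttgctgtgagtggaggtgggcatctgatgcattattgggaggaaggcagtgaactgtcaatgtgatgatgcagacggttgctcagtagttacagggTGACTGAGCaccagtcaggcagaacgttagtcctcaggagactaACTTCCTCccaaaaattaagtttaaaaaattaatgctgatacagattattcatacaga
Zfp3, chr11:70668203-70668403: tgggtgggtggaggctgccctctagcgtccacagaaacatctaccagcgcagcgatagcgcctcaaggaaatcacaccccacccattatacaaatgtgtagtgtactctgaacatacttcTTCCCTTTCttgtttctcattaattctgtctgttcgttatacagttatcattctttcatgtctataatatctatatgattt
Satb1, chr17:52183466-52183666: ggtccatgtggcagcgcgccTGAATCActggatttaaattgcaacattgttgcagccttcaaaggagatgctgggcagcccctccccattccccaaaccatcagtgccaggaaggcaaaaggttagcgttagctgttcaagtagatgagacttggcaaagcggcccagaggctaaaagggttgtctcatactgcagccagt
Cxcr5, chr9:44433388-44433588: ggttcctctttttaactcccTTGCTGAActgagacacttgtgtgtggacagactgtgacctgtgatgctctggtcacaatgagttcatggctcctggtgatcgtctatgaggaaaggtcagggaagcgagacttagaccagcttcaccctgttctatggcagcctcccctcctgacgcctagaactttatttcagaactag
Zap70, chr1:36823940-36824140: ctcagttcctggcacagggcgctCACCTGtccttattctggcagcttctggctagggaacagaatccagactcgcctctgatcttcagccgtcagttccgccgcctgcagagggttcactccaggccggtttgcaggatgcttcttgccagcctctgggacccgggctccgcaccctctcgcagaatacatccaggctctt
Cd247, chr1:165644115-165644315: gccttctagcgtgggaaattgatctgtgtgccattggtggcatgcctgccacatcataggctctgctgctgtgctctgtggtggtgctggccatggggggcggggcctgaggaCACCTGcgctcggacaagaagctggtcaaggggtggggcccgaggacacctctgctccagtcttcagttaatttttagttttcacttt
The capitals show EBF letters 58 bases before the summit nearest Dynlrb2 and RUNX letters 74 bases after the one nearest Mapk6. The summit nearest Abl2 holds NRF2 letters starting 1 base before it and PU.1 letters 43 bases after it, and that nearest Zfp3 holds IRF letters 20 bases after it. AP-1 letters stood 80 bases before the summit nearest Satb1, CEBP letters 80 bases before that nearest Cxcr5, and E2A letters 77 bases before that nearest Zap70 and 13 bases after that nearest Cd247.

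Across the 746 regions, the median percentile was 67.9, 68.6 and 69.0 in HADA 1, 2 and 3 and 48.2, 41.6 and 26.8 in control 1, 2 and 3. Over all shared distal regions the medians were 55.3, 54.4 and 57.2 in HADA and 59.0, 62.4 and 49.6 in control. The selected regions therefore stood above the middle of the distal regions in HADA libraries and below it in control libraries, and the weaker regions did the reverse, with medians of 34.2 to 41.3 in HADA and 66.1 to 71.1 in control. The summit pileup, the number of fragments stacked at the highest point, had a median of 79.5, 71 and 74 in HADA and 29, 26 and 17 in control. Divided by the genome-wide background pileup of each library, which stands for its relative depth, the medians were 34.0, 35.7 and 32.5 in HADA and 17.2, 12.7 and 9.29 in control. The mean HADA to mean control ratio of this background-scaled pileup had a median of 2.51-fold, was above 1 in all 746 regions and above 2-fold in 584 of them (78.3%). For all 8312 shared distal regions the median ratio was 0.859, with 3684 above 1 and 1120 (13.5%) above 2-fold. The local background that the caller assigned to these summits, not scaled for depth, had a median of 7.34, 6.80 and 7.40 in HADA against 3.36, 3.398 and 2.11 in control.

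**Figure D1:**
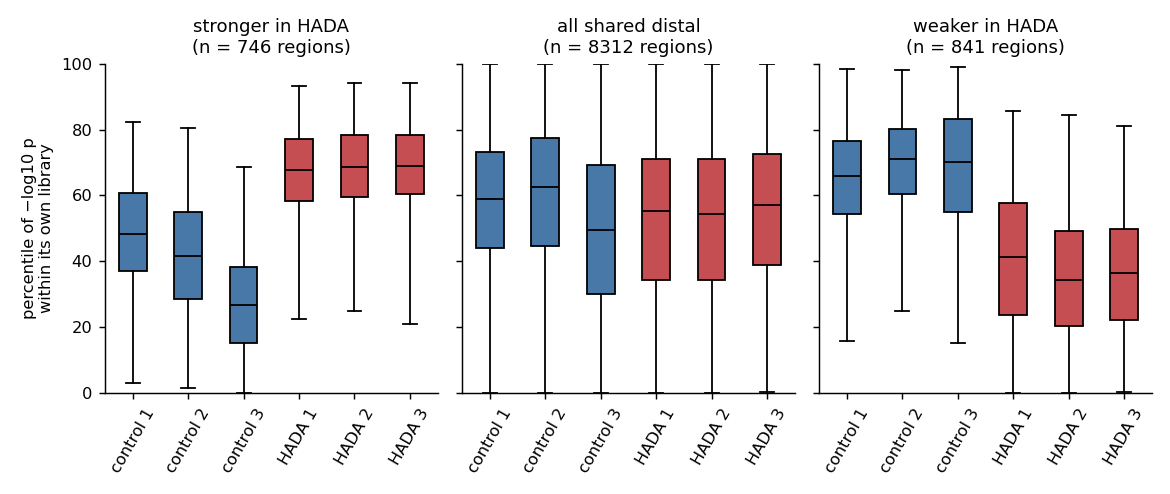
Percentile of the −log10 p-value within its own library (y axis) for each of the 6 libraries (x axis), in regions stronger in HADA, all shared distal regions and regions weaker in HADA. Boxes span the quartiles with the median as a line and whiskers reach the lowest and highest region. In the left panel, which the selection shaped, control 3 has the lowest median, 26.8, and the 3 HADA medians lie between 67.9 and 69.0.

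The spread between libraries of a group was shaped by the rule. The median range between the highest and lowest library was 4.83 points within HADA and 21.9 points within control, against 9.40 and 18.2 points over all shared distal regions. In the regions weaker in HADA the order was the other way, with 14.3 points within HADA and 11.3 within control. Control 3 was the lowest control library in 585 regions (78.4%), where it was lowest in 58.2% of all shared distal regions, and control 1 was the highest in 520 (69.7% against 35.6%). Control 3 also had the fewest peaks, 34128, where the other control lists held 41562 and 41322 and the HADA lists 44119 to 45885. Its background pileup, 1.83, lay between those of control 1, at 1.69, and control 2, at 2.05, and HADA backgrounds were 1.99 to 2.34. On the same 8312 regions, the rule found 790 regions without control 3 and 1530 without control 1. With control 3 left out before merging, more regions were shared and 1652 passed.

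The separation between groups was mostly moderate, with a median gap of 14.2 points between the lowest HADA and the highest control percentile and an upper quartile of 18.1 points. It reached 20 points in 133 regions and 30 points in 9. The regions nearest the threshold show its effect. The intronic region of Ppp1r16b, which encodes a regulatory subunit of protein phosphatase, passed with a gap of 10.0, at 57.0, 54.9 and 56.7 in HADA and 44.8, 32.3 and 10.9 in control libraries. The region nearest Klhl25 also had a gap of 10.0, at 61.3, 64.7 and 62.6 against 51.3, 43.9 and 31.4. Just outside with 9.99 points were the region nearest Gch1, at 79.6, 84.9 and 88.3 against 69.6, 56.2 and 25.4, and the one nearest Znrf1, at 78.4, 77.5 and 82.3 against 67.5, 59.9 and 49.6.

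The widest gap of all, 58.8 points, was at chr5:136669476-136670590, in intergenic sequence 47840 bp from the start of Myl10, a myosin light chain gene. Its percentiles were 85.2, 80.8 and 81.8 in HADA and 22.0, 11.8 and 1.96 in control. The summit pileups were 182, 123 and 126 against 24, 19 and 16. Every HADA value was far above every control value, but the 50 bases at this summit occur 2 times in the genome. Whether reads of the length sequenced can be placed on 1 copy was not tested. Among the 22 regions with a repeated summit sequence, the next widest gaps were 22.7 points nearest Churc1 and 21.7 points in an intron of Myo1e, whose 50 bases occur 19 times.

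Among regions whose summit sequence occurs once, the widest gap was 39.1 points at chr8:117314021-117314991, in an intron of Cdyl2, a chromodomain protein gene, and nearest the start of the dynein light chain gene Dynlrb2. HADA percentiles were 61.7, 55.7 and 60.03 and control percentiles 14.1, 16.6 and 12.4. The background-scaled pileup was 25.1 ± 1.60 in HADA and 8.12 ± 1.22 in control (SD, n = 3 each), a ratio of 3.09. Here the control libraries were close to each other, and control 3 did not stand apart.

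The next region lay in an intron of Grap2, which encodes the adaptor GADS of T cell receptor signalling (chr15:80498360-80499680, gap 36.0). It was at 48.7, 57.1 and 54.2 in HADA and 12.7, 7.51 and 4.37 in control libraries. In Mapk6, an atypical MAP kinase gene, an intronic region reached 64.9, 62.0 and 69.8 in HADA. Its control values were 26.2, 4.03 and 25.9, with control 2 the lowest. An exonic region of Parvb lay 10947 bp from the start of Parvg, the parvin gene used by blood cells, at 65.1, 65.0 and 66.5 against 30.2, 28.6 and 17.4. The intronic region of the tyrosine kinase gene Abl2 was weak in every control library, at 11.2, 5.94 and 3.15, and stood at 51.0, 44.7 and 53.9 in HADA.

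The other 7 of these 12 had gaps of 29.2 to 33.0 points. They lay nearest Zfp3, Jdp2, Rassf3, Mrc1, Prag1, Pik3c3 and Slc12a8. Jdp2 encodes a repressor of AP-1 sites, and its region held 59.2, 59.8 and 62.3 in HADA and 17.9, 27.6 and 17.2 in control. Mrc1 encodes the macrophage mannose receptor, and its intronic region held 68.5, 74.2 and 71.1 against 37.9, 38.8 and 23.2. Of the 12, the region nearest Prag1, a pseudokinase gene, had the highest pileup ratio, 3.98, with 28.4 ± 4.36 in HADA and 7.14 ± 0.637 in control (SD, n = 3 each).

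Regions near lymphocyte genes were counted by lists of marker genes. The B cell, T cell, regulatory T cell and NK cell lists together were nearest to 96 shared distal regions, of which 19 (19.8%) were stronger and 3 (3.12%) weaker in HADA, beside 8.97% and 10.1% of all shared distal regions. The neutrophil, monocyte, and eosinophil and basophil lists were nearest to 24 regions, of which 1 (4.17%) was stronger and 4 (16.7%) weaker. The median gap was 0.121 points for the lymphocyte lists, −15.8 for the myeloid lists and −16.1 for all shared distal regions, where a value below 0 means that the groups overlapped or HADA was lower. With any 1 library left out, on the same regions, the lymphocyte lists held 21 to 33 stronger and 3 to 7 weaker regions, and the myeloid lists 1 to 2 and 4 to 6. The highest lymphocyte count, 33, was without control 1, where 1530 of all 8312 regions passed. No test of these counts was made, since the rule fixed the direction of the members.

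Promoter peaks of the same marker genes followed the distal counts in some lists and not in others. The summed background-scaled promoter pileup of the B cell list was 1738 to 1989 in HADA and 605 to 1083 in control libraries, and that of the T cell list 964 to 1095 against 500 to 739. The neutrophil list ran the other way, with 155 to 277 in HADA and 368 to 897 in control libraries, and the monocyte list overlapped, with 353 to 479 against 459 to 615. Of 25 B cell genes on these chromosomes, control 3 lacked a promoter peak at 10, among them Cd79a and Ebf1. Control 1, control 2, HADA 2 and HADA 3 lacked 2 each and HADA 1 lacked 1, so only control 3 stood apart. All 6 libraries lacked a promoter peak at Spib of the B cell list, at Cd4 and Cd8a of the T cell list and at Ly6g, Camp, Ngp and Elane of the neutrophil list. By limma, described below, 7 of 42 tested promoters of the lymphocyte lists were higher and 0 lower in HADA, and 0 of 17 of the myeloid lists were higher and 6 lower, where 9.9% of all gene promoters were higher and 2.06% lower. The same fit called 0 promoters of any gene without control 2 or without any 1 HADA library. The summed promoter pileup was 157 to 182 in HADA and 66.1 to 140 in control libraries for the NK cell list, and 254 to 280 against 112 to 179 for the regulatory T cell list. For the hypoxia list it was 1778 to 2065 against 1201 to 1691. The median HADA minus control difference in normal score of the tested promoters was 0.65 for the B cell, 0.43 for the T cell and 0.41 for the NK cell list. It was 0.19 for the regulatory T cell and 0.23 for the hypoxia list, close to the 0.21 of all gene promoters. Of 15 tested NRF2 target promoters 0 were called higher and 3 lower, and of 16 hypoxia response promoters 1 was called higher and 0 lower. The summed pileups of the groups overlapped in the NRF2 target list, at 1113 to 1341 against 998 to 1724, in the eosinophil and basophil list, at 12.8 to 64.5 against 48.2 to 95.6, and in the erythroid and platelet list, at 44.7 to 52.1 against 35.0 to 45.6. The part of cell type proportions in the selected regions was not tested.

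Of 36 shared distal regions nearest B cell list genes, 5 (13.9%) were stronger and 1, near Syk, was weaker in HADA, beside 8.97% and 10.1% of all shared distal regions. With 36 regions, the list is too small to set its 13.9% apart from the 8.97%. Cxcr5, which encodes a receptor that guides B cells to follicles, had an intronic region (chr9:44433202-44433833) at 54.8, 58.4 and 62.0 in HADA and 34.0, 24.2 and 16.9 in control. An intronic region of Bach2, a repressor gene of B and T cells, held 76.2, 75.3 and 76.2 against 58.9, 55.4 and 36.6. The region 5310 bp from Tnfrsf13c, the gene of the BAFF receptor, was at 82.4, 83.6 and 86.8 in HADA and 69.2, 64.2 and 21.8 in control, so control 3 lay far below the others. The same was seen at an intronic region of Pax5, the B lineage commitment factor gene, at 85.3, 82.2 and 84.1 against 70.0, 41.0 and 8.81. Pou2f2, which encodes the octamer factor OCT2, held 62.2, 64.6 and 59.5 against 37.8, 46.5 and 24.2. All 5 regions had ratios of the background-scaled pileup between 2.10 at Pou2f2 and 4.36 at Pax5.

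T cell list genes were nearest to 38 shared distal regions, with 8 stronger and 0 weaker in HADA, beside 8.97% and 10.1% of all shared distal regions. The widest gap, 27.1 points, was 42944 bp from Satb1, a chromatin organizer gene of T cells, at 71.6, 70.6 and 73.5 in HADA and 43.5, 28.4 and 16.8 in control. The region 17696 bp from Zap70, the kinase of the T cell receptor, was at 59.1, 63.6 and 61.9 against 39.6, 7.995 and 10.9. Control 1 was the highest control library in both. At Cd247, the gene of the CD3 zeta chain, the intronic region held 49.5, 54.8 and 54.8 against 26.2, 19.8 and 34.0, and here control 3 was the highest. Prkcq, which encodes protein kinase C theta, had a region at 38.9, 49.7 and 53.7 against 21.8, 16.1 and 13.6. The regions nearest Tcf7, Lef1, Lat and Ccr7 had gaps of 14.3, 12.2, 11.4 and 11.04 points. Tcf7 and Lef1 encode related HMG box factors of naive and memory T cells, Lat an adaptor of the T cell receptor, and Ccr7 a receptor for entry to lymph nodes.

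Genes used by regulatory T cells were nearest to 14 shared distal regions, of which 5 were stronger and 2, near Icos and Nrp1, were weaker in HADA, beside the same 8.97% and 10.1%. The list is small, and its counts carry no test. A pair of the 5 stronger regions lay near Ctla4, which encodes an inhibitory receptor. The nearer, 7370 bp from its start, held 80.9, 84.5 and 83.2 in HADA and 64.6, 46.2 and 28.4 in control, and the farther, at 32104 bp, held 85.6, 81.9 and 81.9 against 65.2, 69.2 and 42.6. An intronic region of Il2ra, the gene of the interleukin-2 receptor alpha chain CD25, was at 68.5, 64.8 and 65.2 against 42.4, 52.1 and 17.3. Near Lrrc32, which encodes the latent TGF-beta carrier GARP, the values were 50.5, 53.8 and 44.6 against 32.1, 14.2 and 10.9. Tigit, another inhibitory receptor gene, had a region at 87.5, 89.7 and 91.1 against 76.7, 73.6 and 57.6. These genes are also used by other T cells, and the libraries were not sorted.

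One member each was nearest to an NK cell, a monocyte and a hypoxia response list gene, in lists too small to set apart from the 8.97% stronger and 10.1% weaker of all shared distal regions. Gzmb, the granzyme B gene, had 1 of 8 regions of its list, at 60.1, 59.7 and 61.9 in HADA and 46.2, 42.9 and 23.2 in control. Klf4, a monocyte factor gene, lay 291650 bp from its region, the only one of 11 in its list, at 73.6, 77.3 and 76.9 against 58.8, 59.4 and 30.0. Ddit4, a stress-induced inhibitor of mTORC1, had 1 stronger region of the 14 of the hypoxia list, at 60.8, 66.5 and 53.7 against 33.5, 40.5 and 39.2. In that list 3 regions, 1 near Hif1a and 2 near Pfkfb3, were weaker. No region near the 6 of the neutrophil, 7 of the eosinophil and basophil, 5 of the NRF2 target or 1 of the erythroid and platelet list was among the 746, while S100a9, Il1r2, Ccr3, Cd200r3 and Gsr each had a weaker one. With 1 to 7 regions a list, counts of 0 are near the 8.97% of all.

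**Figure D2:**
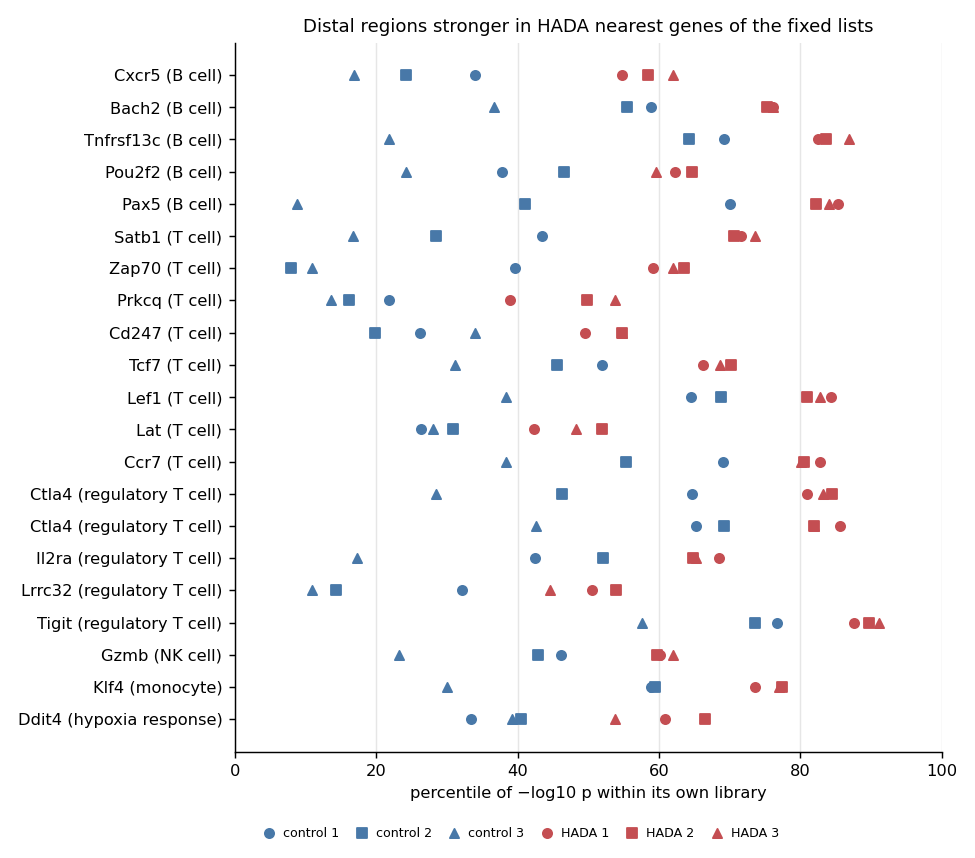
Percentile of the −log10 p-value within its own library (x axis) for the 21 regions stronger in HADA nearest genes of the fixed lists (y axis), with 1 point per library. All HADA points lie to the right of all control points, as the selection requires, and control 3 is the leftmost in 17 of the 21 rows.

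Several genes held more than 1 of the 746 regions, which had 653 different nearest genes. There were 77 genes with at least 2 and 10 with at least 3, and the 10 are named here because of that count, after their values were seen. Their shares were therefore selected to be high, beside 8.97% of all shared distal regions that were stronger and 10.1% weaker. Foxo1, which encodes a factor of lymphocyte homing and survival, had 5 of its 9 shared distal regions among the members, 75318 to 304457 bp from its start, with mean HADA percentiles of 56.2 to 92.5 and control means of 31.6 to 66.0. Foxp1, a factor gene of B cell development and T cell quiescence, had 5 of 15, all in its introns, and 1 weaker region. Ets1 had 4 of 13 with 1 weaker, and Ncoa3, a nuclear receptor coactivator gene, had 4 of 4. Chd7, Chsy1, Coro2a, Id2, Mta3 and Zfp217 had 3 each, of 4 to 9 shared distal regions, and Chd7 also had 1 weaker region. The summit sequence of 1 of the 3 was repeated at Chd7 (599 copies), Coro2a (4) and Chsy1 (2), and without it these genes would have had 2 members. Id2 encodes an inhibitor of E proteins that acts in NK and innate lymphoid cells, and its regions lay 58379 to 341434 bp away in introns of the noncoding genes Gm36287 and Gm36723. The HADA to control ratios of the background-scaled pileup were 2.48 to 4.12 at Foxo1, 2.17 to 3.89 at Foxp1 and 2.76 to 3.84 at Ets1.

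When members within 100 kb of the next were joined, 208 of the 746 fell into 93 clusters and 538 stood alone. The largest cluster held 6 members over 170 kb around Fli1 and Ets1, neighbouring genes of ETS factors used in lymphocytes and platelets, at chr9:32473562-32643489. The 9 shared distal regions in this span included 0 weaker ones. Of its 6 members, 2 were nearest Fli1 and 4 lay in Ets1. The strongest contrast was an Ets1 intronic region at 75.5, 71.5 and 72.4 in HADA and 47.1, 39.5 and 6.82 in control libraries. Control 3 was the lowest control library in 5 of the 6. Clusters of 4 members each, equal in size, lay at Mta3 and Haao (129 kb), at Ncoa3 (85.8 kb) and at Sec11a, Wdr73 and Zfp592 (122 kb). All 4 shared distal regions in the Ncoa3 span were members, and control 1 and control 2 differed by at most 5.55 points in each of them.

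**Figure D3:**
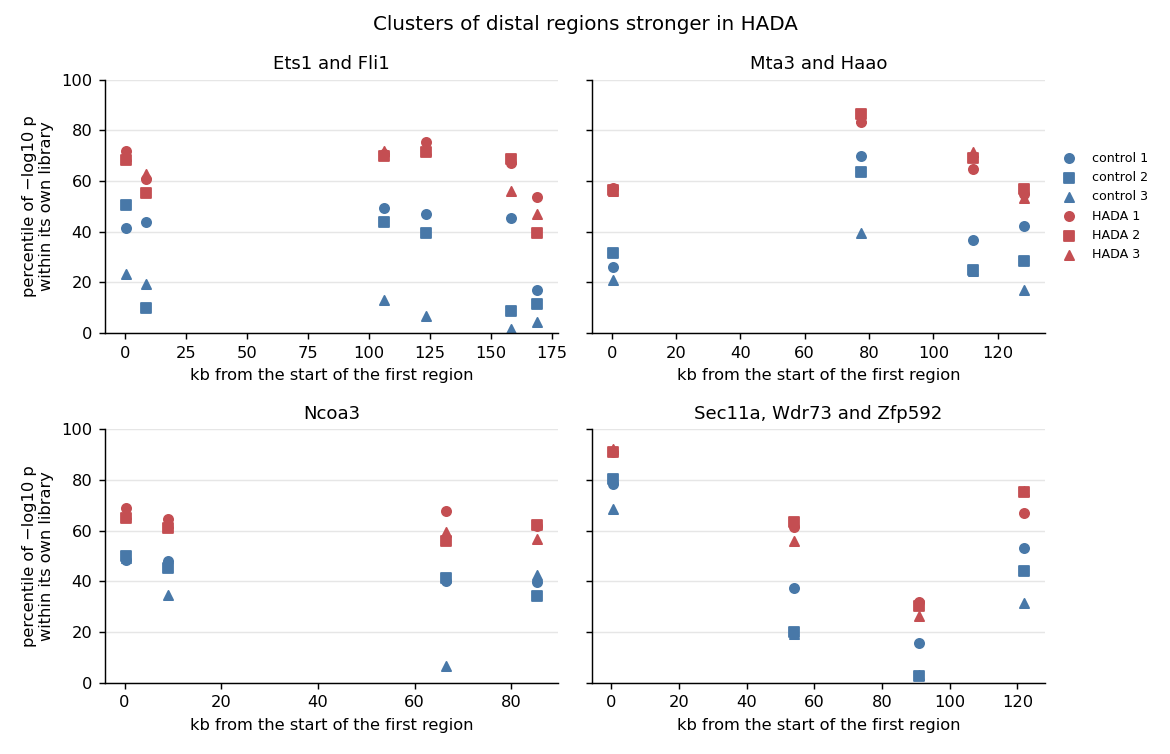
Percentile of the −log10 p-value within its own library (y axis) against distance in kb from the start of the first region (x axis) for the 18 members in the 4 largest clusters, with 1 point per library. At Ets1 and Fli1 the control points spread widely, from 1.73 to 50.5, while at Ncoa3 the control points lie within 34.4 to 50.2 apart from 1 value of 6.82 in control 3.

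Beyond the chromosomes kept and the distance from transcript starts, the position of the regions did not enter the rule, nor did their sequence. Summits of the 746 lay in introns in 66.0% (492), in intergenic sequence in 26.3% (196) and in exons of any annotated gene in 7.77% (58). For all shared distal regions the shares were 57.0%, 38.02% and 5.02%, and for regions weaker in HADA 53.2%, 42.7% and 4.16%. The selected regions were nearer to genes, with a median of 21385 bp to the nearest protein-coding start against 27318 bp for all and 31287 bp for the weaker, and 10.99% lay over 100 kb away against 22.2%. In 46.8% the summit lay within the gene whose start was nearest, against 39.1%. They were distributed over every chromosome, from 6.58% of the shared distal regions of chromosome 6 to 12.7% of those of chromosome 17. Regions are not replicates of a condition, so these shares carry no test.

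Repeated sequence was scarce among the members. The 50 bases at the summit occurred once in the genome in 97.1%, against 80.0% of all shared distal and 81.5% of the weaker regions. With both sets limited to such summits, the intron share of members exceeded that of all shared distal regions by 5.40 instead of 8.99 percentage points. The median GC content of the 201 bases at the summit was 49.3%, against 47.8% and 46.3%, and the mean number of CpG dinucleotides 3.45, against 3.04 and 2.42. The median width was 940 bp, against 1049 and 1038 bp.

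For 16 motifs, both strands of the 201 bases at the summit were searched for the letters. The E-box letters CACCTG, bound by E2A, were found in 147 members (19.7%), in 15.9% of all shared distal regions and in 12.8% of the weaker. EBF letters (TCCCNNGGG) were in 39 (5.23%), against 3.31% and 2.26%, PU.1 letters (GAGGAAGT) in 8.98%, against 6.20% and 6.66%, and IRF letters (GAAANNGAA) in 10.3%, against 7.53% and 7.37%. These were more frequent in members than in both other sets. The excess over all shared distal regions fell from 2.79 to 1.56 percentage points for IRF and from 2.79 to 1.61 for PU.1 with summit sequences found once, and without control 1 from 3.79 to 1.86 for E2A, from 1.92 to 1.01 for EBF and to 1.75 for IRF. CEBP letters (TTGCNNAA) were the reverse, in 57 members (7.64%), 10.7% of all and 18.4% of the weaker. RUNX letters (TGTGGTT) were in 10.3%, 9.35% and 7.49%, and TCF7 letters (CTTTGAT) in 3.22%, 2.62% and 2.62%. Octamer letters (ATGCAAAT) were in 2.41%, 2.15% and 1.90%, and the NF-kB motif in 2.01%, 1.30% and 0.832%.

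The letters of stress-responsive bZIP factors showed little contrast. Short letters such as these also occur by chance, at a rate that was not counted, so the shares do not measure bound sites. NRF2 letters (TGACNNNGC) were in 8.04% of members, 7.10% of all and 8.44% of the weaker, and AP-1 letters (TGANTCA) in 7.51%, 6.28% and 8.44%. NF-E2 letters (GCTGAGTCA), which contain AP-1 letters and can overlap NRF2 letters, were in 2 members, or 0.268%, against 0.409% and 0.713%. GATA letters (AGATAA) were in 8.31%, 7.86% and 8.92%. The remaining motifs were rare. ETS letters (CCGGAAGT) were in 8 members and the CTCF motif in 6, while EGR letters (GCGTGGGCG) were in 0 of the 746 and in 4 of all shared distal regions. In all, 63.9% of members held at least 1 of the 16, against 57.2% and 60.8%.

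**Figure D4:**
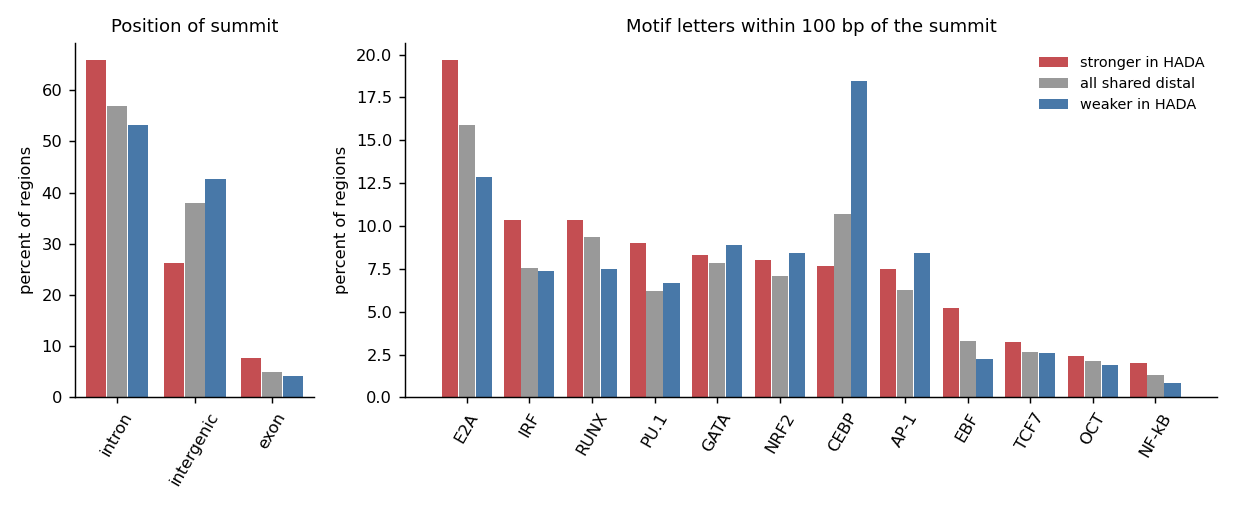
Percent of regions (y axis) by position of the summit (left) and holding the letters of 12 of the 16 motifs (right), for regions stronger in HADA, all shared distal regions and regions weaker in HADA. The CEBP bars rise from 7.64% to 18.4% between the stronger and the weaker regions, while the E2A bars fall from 19.7% to 12.8%.

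Other open regions near the members were counted within 25 kb. A region with peaks in all HADA and no control library, of which there were 4314, lay within 25 kb of 204 members (27.3%), against 16.2% of all shared distal and 11.1% of the weaker regions. A region with peaks in all control and no HADA library, of which there were 1120, lay near 5.50%, against 5.51% and 7.73%. Another member lay within 25 kb of 10.7% of members, against 5.32% of all shared distal and 2.38% of the weaker regions. A weaker region lay within 25 kb of 2.82% of members, against 5.20% of all, and another weaker one within 25 kb of 10.5% of the weaker. These neighbours come from the same libraries as the rule, so they are not independent of it.

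To ask whether promoters near the members differed as well, the promoter regions of their nearest genes were compared, which the rule had not used. For each of the 23013 shared regions the percentile was turned into a normal score, and limma tested HADA against control, with p-values adjusted by Benjamini-Hochberg over all of them. Values below are the HADA minus control difference in normal score, in SD units of a library's peak list. Of the 653 nearest genes, 499 had a shared region with its summit within 1000 bp of a start. Of these 499 promoters, 70 (14.0%) were higher and 7 (1.40%) were lower in HADA at an adjusted p of 0.05, with a median difference of 0.26. For genes nearest other shared distal regions but no member, 9.72% of 2417 promoters were higher and 3.52% lower, with a median of 0.18. For all 10495 protein-coding genes with a shared promoter region, 9.9% were higher and 2.06% lower, with a median of 0.21. No test of the difference between these shares was made. In a fit on the fold column over the same 499 promoters, added after the data were seen, 14 (2.81%) were higher against 4.03% of all gene promoters, and the order of both the shares and the medians turned, with medians of 0.12 and 0.15. The calls depended on the libraries in the fit: without control 2, or without any 1 of the HADA libraries, limma called 0 promoters of the genes nearest members in either direction, with 122 to 199 higher and 11 to 27 lower at an unadjusted p of 0.05.

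The promoter with the smallest p was that of Lef1, at 74.5, 73.0 and 76.4 in HADA against 49.5, 44.2 and 42.2 in control, which differed by 0.78 ± 0.10 (SE; limma adjusted p = 0.0327). Its member lay 52873 bp away. The Cd38 promoter was at 61.9, 62.8 and 65.5 against 33.3, 40.4 and 25.1 (0.79 ± 0.13, limma adjusted p = 0.0328). Cd38 encodes an NAD-consuming ectoenzyme of lymphocytes, and its intronic member had a gap of 22.6 points. Hvcn1, the voltage-gated proton channel gene of B cells and phagocytes, was at 87.5, 90.3 and 89.0 against 73.7, 63.0 and 51.2 (0.89 ± 0.16, limma adjusted p = 0.0340). The other named rises were at Mfhas1, Atp23, Inpp4b, Rassf2 and Foxk1, by 0.61 to 0.95. With the fold column, the calls at Lef1, Hvcn1, Mfhas1, Inpp4b and Rassf2 were lost, at limma adjusted p of 0.0552 to 0.102, and Lef1 differed by 0.38. Inpp4b encodes a phosphoinositide phosphatase, and its promoter stood at 88.6, 89.0 and 90.3 in HADA and 77.4, 75.9 and 67.6 in control libraries.

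The 7 promoters that fell were those of Pi16, Zbtb7b, Chrm3, Litaf, Cd244a, Cd300a and Cmip. At these genes the distal region and the promoter differed in direction. Zbtb7b encodes ThPOK, the factor of CD4 lineage choice. Its exonic member lay 3437 bp from a start and was at 76.0, 76.9 and 76.4 in HADA and 49.9, 53.8 and 44.3 in control. Its promoter was at 96.5, 95.1 and 93.7 in HADA and 99.2, 99.1 and 99.7 in control, a difference of −0.84 ± 0.15 (limma adjusted p = 0.0329). The Pi16 promoter was at 58.0, 39.2 and 39.3 against 80.1, 76.3 and 79.8, with HADA 1 above the other HADA libraries (−0.91 ± 0.15, limma adjusted p = 0.0328). Cd244a and Cd300a encode receptors of NK and myeloid cells, and their promoters fell by 0.54 and 0.43. The calls at Cd300a and Cmip were lost without control 3, at limma adjusted p of 0.0625 and 0.0551. With the fold column, 4 of the 7 lost their call: Chrm3 at −0.14, Litaf at −0.19, Cd300a at −0.092 and Cmip at −0.14, with limma adjusted p of 0.203 to 0.604.

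Of the list genes nearest a member, 16 had a tested promoter, and 2 of these, Lef1 and Lat, were called, both higher, beside the 9.9% of all gene promoters. The Lat promoter was at 76.6, 74.99 and 77.1 in HADA and 63.2, 54.0 and 47.6 in control libraries (0.59 ± 0.13, limma adjusted p = 0.0384, and 0.0537 with the fold column). In 10 of the 16, every HADA value lay above every control value, as in 49.5% of all gene promoters, and 8 of these 10 did not pass. Of the 8, Bach2, Cxcr5, Pax5, Tnfrsf13c, Ccr7 and Zap70 passed with log2 pileup, at limma adjusted p of 0.0121 to 0.0270, and with a trended robust limma fit, at 0.0211 to 0.0486. In those settings 17.4% and 26.2% of all gene promoters were called higher. Cd247 and Klf4 passed in neither, at limma adjusted p of 0.700 and 0.183 with log2 pileup and 0.302 and 0.161 with the trended robust fit. Without control 1, Cd247 was called (0.42, limma adjusted p = 0.0390), where 26.3% of all gene promoters were called higher. The Pax5 promoter was at 75.7, 82.7 and 74.2 against 59.8, 45.5 and 13.8 (limma adjusted p = 0.0590), and that of Tnfrsf13c at 78.7, 79.3 and 78.7 against 64.5, 51.7 and 6.82 (limma adjusted p = 0.0926). In each, control 3 widened the control spread. Without control 3 both promoters were called, at limma adjusted p of 0.0390 and 0.0343. Their differences were then smaller, 0.70 instead of 1.08 at Pax5 and 0.60 instead of 1.16 at Tnfrsf13c. The promoters of Tigit, Pou2f2 and Ddit4 had differences of 0.063, 0.017 and −0.0013 with overlapping groups, at limma adjusted p of 0.764, 0.904 and 0.993. With log2 pileup, Pou2f2 differed by 1.09 and was called (limma adjusted p = 0.0120). Foxo1, outside the naming rule, had a promoter difference of 0.47 ± 0.11 (limma adjusted p = 0.0410), while those of Foxp1, Ets1 and Ncoa3 were 0.44, 0.28 and 0.26 with limma adjusted p of 0.0868, 0.0660 and 0.102. Of the other 6 genes with at least 3 members, Chd7, Chsy1, Mta3 and Zfp217 had differences of 0.24 to 0.99 and Coro2a and Id2 of −0.17 each, and none was called (limma adjusted p of 0.0592 to 0.291).

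**Figure D5:**
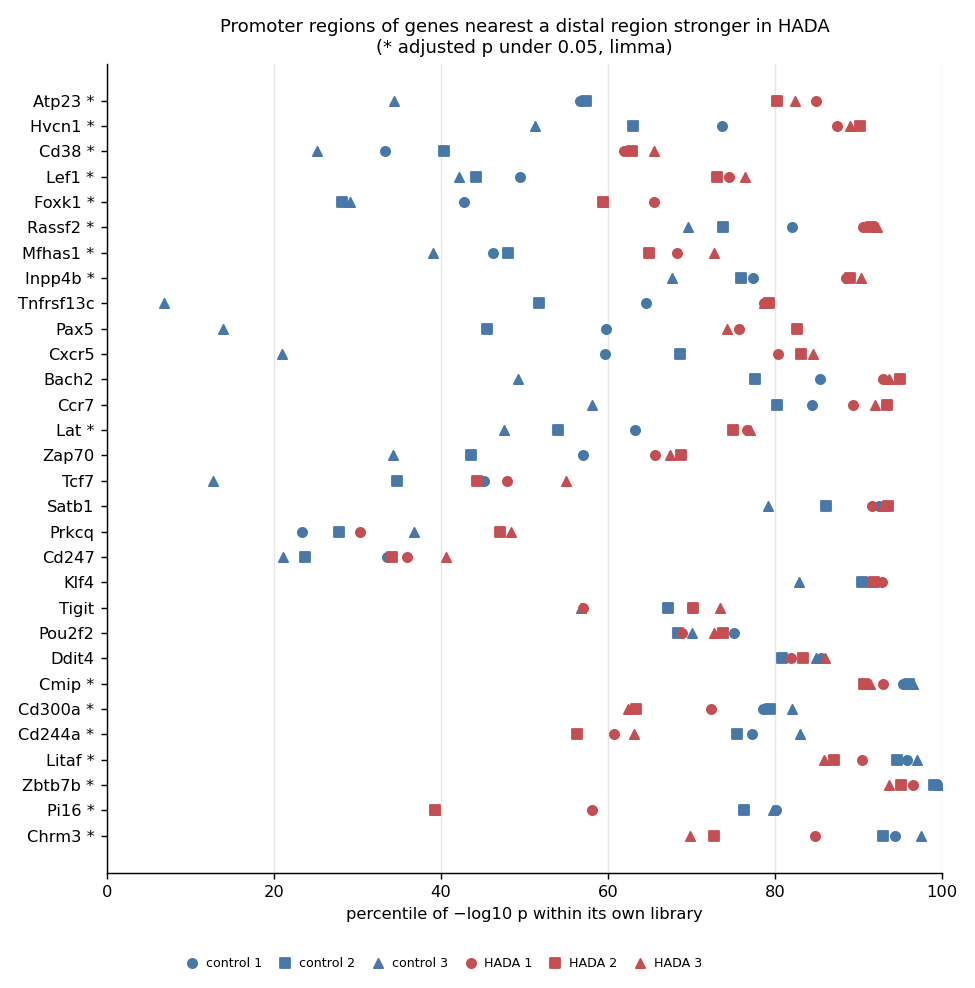
Percentile of the −log10 p-value within its own library (x axis) for the named promoter regions of genes nearest a member (y axis), with 1 point per library. The 8 at the top were called higher and the 7 at the bottom lower in HADA, the middle rows are list genes, and a star marks a limma adjusted p under 0.05. HADA and control points do not overlap in the starred rows, while they overlap in rows such as Ddit4, Pou2f2 and Tigit.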

How the data were processed

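ATAC-seq peak lists of 3 control and 3 HADA libraries were analysed, grouped by the labels. Per the study's methods and processing notes, reads were trimmed with Trimmomatic, aligned to GRCm39 with Bowtie2, cleared of duplicates with Picard and called with MACS2, 1 list per library, and tool versions and any shift of reads for Tn5 are not given in the sources used here. The deposited lists give each peak a fold enrichment (a ratio of summit pileup to local background), a −log10 p-value and a −log10 q-value, all computed by the authors' peak caller. The build was checked against GRCm39: 0 peaks passed a sequence end, and a start was annotated within 100 bp of 22.4% of summits, but of 2.13% when shifted by 100 kb.

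Regions were merged and selected as the report states. The mirrored rule gave the weaker regions. Genes and starts came from the GENCODE annotation of GRCm39, and a region's summit was the one at the smallest summed distance from the 6 libraries' highest summits. Whole-number summit pileups, with their backgrounds, were solved from the deposited fold and −log10 p-value, and 100% of peaks returned the deposited p-value column to within 0.1%. Depth was read as the genome-wide background pileup, and total reads were not analysed here. Exact copies of the 50 bases at a summit were counted on both strands. Percentiles rank a peak within its list, so they shift with the number of weak peaks called.

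Promoters were compared with limma 3.58.1 in R 4.3.3 on normal scores of the percentile over all 23013 shared regions, with Benjamini-Hochberg adjustment at 0.05, after a test on simulated data. The promoter of a gene was the shared region with its summit within 1000 bp of a start, the one of highest mean score if several. Other steps used Python 3.11.15, numpy 2.4.6, pandas 2.3.3 and scipy 1.17.1. Figures were drawn with matplotlib 3.10.9.

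The 10 gene lists (172 genes, all matched by symbol), the 16 motifs and the members were chosen with earlier results of these data known. The rule named the 12 regions of widest gap with a summit sequence found once, 3 with a repeated one, up to 4 per list, those beside the threshold, the 3 largest clusters (4 because of a tie), up to 8 promoters in each direction of smallest p and every tested promoter of a list gene nearest a member. Exonic windows and repeated sequence were left out of the printed sequences. Alternatives changed the column, gap, distance, merging, summit, motif window, fit and libraries. Percentiles were taken over each whole list, and regions on chromosomes X and Y and on scaffolds were left out.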

Additional observations from a re-analysis of the deposited data

How the results depend on the processing

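The number of regions stronger in HADA, 746, moved to 1446 with a gap of 5 points, to 133 with 20 points and to 326 with summits over 10 kb from any start. It stayed within 506 to 947 with the fold or pileup column, a start distance of 1 kb, −log10 q of at least 5, stricter merging or summit sequences found once, and the fold column kept 403 of the 746. With 1 library left out it was 835 to 1652, highest without control 3 and next without control 1 (1550). The number of regions weaker in HADA, 841 as reported, was then 1038 to 1531, highest without HADA 3 and next without control 3 (1485). Promoters called higher, 70 as reported, were 16 with the fold column, 124 with log2 pileup, 162 with a trended robust limma fit and 182 for all genes within 100 kb of a member, and 0 to 279 with 1 library left out. The share of all gene promoters called higher moved with them. The share was 24.8% near members against 17.4% of all with log2 pileup and 32.5% against 26.2% with the trended robust fit. It was 12.9% against 9.9% for genes within 100 kb, 29.8% against 26.3% without control 1 and 19.5% against 11.3% without control 3. With only regions of a mean percentile of at least 25 fitted, it was 18.5% against 12.4%. Promoters called lower, 7 as reported, were 21 with log2 pileup, 17 with the trended robust fit, 24 within 100 kb and 6 with the fold column. With 1 library left out they were 0 to 20. With the fold column, 10 of the 16 named promoter calls were lost and, among the genes nearest the 518 regions that the fold column selects, 4.26% of 376 promoters were higher against 4.07% of all. Among the left-out libraries, the counts called higher and lower were both highest without control 1, at 279 and 20. They were 199 and 11 without control 3. Left-out libraries and the fold column also changed the members and so the promoters tested. On the same members and promoters, a fold column fit added after the data were seen called 14 higher and 3 lower.

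The labels number replicates 1 to 3 in both groups. With the replicate block in the limma fit, 0 promoters were called higher and 0 lower (146 and 15 at an unadjusted p of 0.05). The deviations of same-numbered libraries correlated at −0.025, 0.0062 and −0.23, and no library correlated best with its own number, so the numbers were not taken as pairs.

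Against all shared distal regions, the intron share of members was 5.40 percentage points higher with summit sequences found once (8.99 as reported). With 250 bp on each side of the summit, the difference was −5.92 points for CEBP, 7.56 for E2A, 3.78 for EBF and 6.25 for IRF letters, wider than the −3.05, 3.79, 1.92 and 2.79 as reported. They were narrower for IRF (1.56) and PU.1 (1.61, from 2.79) with summit sequences found once. With 1 library left out they were 1.86 to 3.96 for E2A, 1.01 to 1.85 for EBF, 1.75 to 2.67 for IRF, 1.91 to 3.17 for PU.1 and −3.75 to −2.85 for CEBP, and the lowest of the first 4 were without control 1. Left-out libraries, added after the data were seen, gave 21 to 33 stronger and 3 to 7 weaker regions for the lymphocyte lists and 1 to 2 stronger regions for the myeloid lists. With log2 pileup 7 named promoters gained a call (Bach2, Ccr7, Cxcr5, Pax5, Tnfrsf13c, Zap70 and Pou2f2, the last at 1.09), and the first 6 also with the trended robust fit. Without control 1, 6 gained a call: Bach2, Ccr7, Cd247, Pax5, Satb1 and Zap70. Without control 3, Bach2, Ccr7, Cxcr5, Pax5 and Tnfrsf13c gained one, each at a smaller difference than reported. The differences that turned in sign were not called in the turned setting: Klf4 (−0.22), Pou2f2 (−0.16) and Satb1 (−0.10) with the fold column, Tigit (−0.12) with log2 pileup, and with 1 library left out Ddit4 (−0.059 to 0.036), Pou2f2 (−0.024 to 0.074) and Tigit (−0.042 to 0.20). The causes were not tested. What depth limits was not tested, and the members' median summit pileup was 17 fragments in control 3 and 26 to 79.5 in the other libraries.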

Other observations

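Beside the 4 largest clusters, 12 clusters of 3 members each were found. Those at Foxp1, Chd7, Chsy1, Coro2a and Zfp217 had 1 nearest gene, and those at Arhgap30, Itpkb, Arid1b, Cd38, Hvcn1, Flt3 and Ap1m1 held members nearest a neighbouring gene as well. At Flt3, the gene of a receptor tyrosine kinase of early blood cells and dendritic cells, all 3 shared distal regions in the span of 24.7 kb were members. The exonic one was at 69.6, 70.2 and 73.1 in HADA and 51.1, 51.8 and 50 in control libraries, and the intronic one of widest gap at 79.2, 78.5 and 80.3 against 60.9, 51.6 and 13.7. Control 3 stood far below the other control libraries in the intronic region and close to them in the exonic one. The spans at Foxp1 and Ap1m1 each held 1 region weaker in HADA, and the other 10 spans held 0.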
